A study of Mus musculus with 6 samples.

Results

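The interferon-induced genes of mouse osteoclasts, type I and gamma, were followed as 66 gene names of the 37074 on the array, found by a rule on the names themselves. They include the interferon receptor genes, the Stat2, Irf1, Irf7 and Irf9 genes, 3 sensor genes, and the Oas, Ifit, Ifitm, Gbp and Ifi families with the immunity-related GTPases and 6 further antiviral effectors. Of these, 34 had a single probe. To be tested, a gene had to stand well above background on every array of 1 group or both, as 63 of the 66 names and 20645 of all names did. *Oas1h* and *Ifi44l* were not above background on any array, and *Ifitm5* was above it on 2 arrays of 1 group and 1 of the other.

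The arrays held RNA of osteoclasts grown from bone marrow cells of 3 Ano1fl/fl mice, in which the gene of the chloride channel anoctamin 1 is flanked by loxP sites and left intact, and of 3 Ctsk-Cre;Ano1fl/fl mice. In the latter the Cre recombinase is driven from the cathepsin K gene, which osteoclasts use, so that both groups carry the same loxP alleles and differ in Cre. The mice were littermates 6 to 8 weeks old, and the marrow cells were kept with M-CSF and then with RANKL, the cytokine that drives osteoclast formation, for 5 days. The comparison asks which of these genes differed in osteoclasts between the genotypes, with 1 array for each mouse and 3 mice a group. The p-values measure the spread between these mice only.

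Interferons are secreted proteins that cells release on meeting viral or bacterial nucleic acid. Type I interferons act through IFNAR1 and IFNAR2 and a complex holding STAT2 and IRF9 that binds the interferon-stimulated response element (ISRE), whereas interferon gamma acts through IFNGR1 and IFNGR2 and, in the nucleus, through the gamma-activated site (GAS). In bone, RANKL is known to induce interferon beta in osteoclast precursors, and both kinds of interferon are known to hold osteoclast formation back.

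Directions below follow the labels of the arrays, since the *Ano1* probe stayed near background on all of the arrays and gives no check of them. Each array had 33480 to 34951 of 59305 transcript spots well above background, and no spot was saturated. All 12 osteoclast marker genes passed the test as higher on the Ctsk-Cre;Ano1fl/fl arrays, with a median log2 difference of 3.02 and summed signals of 167934 to 182065 against 551904 to 621290. They were well above background on every array, except *Calcr* on 1 Ano1fl/fl array. The study, by contrast, reports *Nfatc1*, *Acp5*, *Ctsk* and *Mmp9* as lower in Ctsk-Cre;Ano1fl/fl osteoclasts by quantitative PCR, opposite to these arrays under their labels. It also reports fewer multinucleated osteoclasts, a smaller area of resorption pits and less NFATc1 protein in that genotype. Whether the arrays under their labels or the study's account is right was not settled here. The sign of every difference rests on the labels. Markers of other cells were counted too, beside the 23.4% of all genes tested that were higher and the 29.0% that were lower. Of stromal cell and osteoblast genes, 12 of 15 tested (80.0%) rose and 1 fell, with summed signals of 25612 to 27419 against 95418 to 139602. Of B cell genes 8 of 9 (88.9%) rose. Of neutrophil genes 7 of 11 (63.6%) fell and 2 (18.2%) rose, with sums of 333176 to 350987 against 234724 to 285434. Of 9 genes of plasmacytoid dendritic cells, 2 rose (22.2%) and 2 fell (22.2%), with overlapping sums. Of 11 macrophage genes 2 rose (18.2%) and 5 fell (45.5%), although the summed macrophage signal was higher (495392 to 530692 against 580748 to 675658). Conventional dendritic cell genes rose in 3 of 5 cases and fell in 1, T and NK cell genes rose in 5 of 13 and fell in 2, and of 4 endothelial genes 1 rose and 1 fell, with *Tek* and *Tie1* not above background. Some of these counts turned on 1 array: with 1 array left out, 3 to 5 macrophage genes, 0 to 1 plasmacytoid dendritic cell genes and 2 to 5 T and NK cell genes fell, the last highest without Ctsk-Cre;Ano1fl/fl replicate 3, and the single falls among conventional dendritic and stromal genes were lost in most such fits. The part of these cells in the results was not tested, and in such bulk RNA fewer cells of a type and less RNA per cell cannot be told apart.

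Ano1fl/fl replicate 1 stood apart within its own group. The log2 signals of 52 of the 63 tested genes (82.5%) were lowest on Ano1fl/fl replicate 1 among the 3 arrays of that genotype, against 33.9% of all genes tested. Their median deviation from the group mean on that array was -0.21, whereas that of all genes was 0.01. The guanylate binding protein genes deviated the most of the roles, by a median of -0.53, and all 11 were lowest there. The 4 Ifit genes, the 6 other antiviral effectors and the 5 immunity-related GTPases were also all lowest on this array. The receptors and the Ifitm genes were not, with 2 of 4 and 2 of 5. Among the Ctsk-Cre;Ano1fl/fl arrays, replicate 2 was lowest for 35 of the 63 (55.6%), against 32.5% of all genes. The counts over all of the genes are therefore given with all arrays and without Ano1fl/fl replicate 1.

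**Figure D1:**
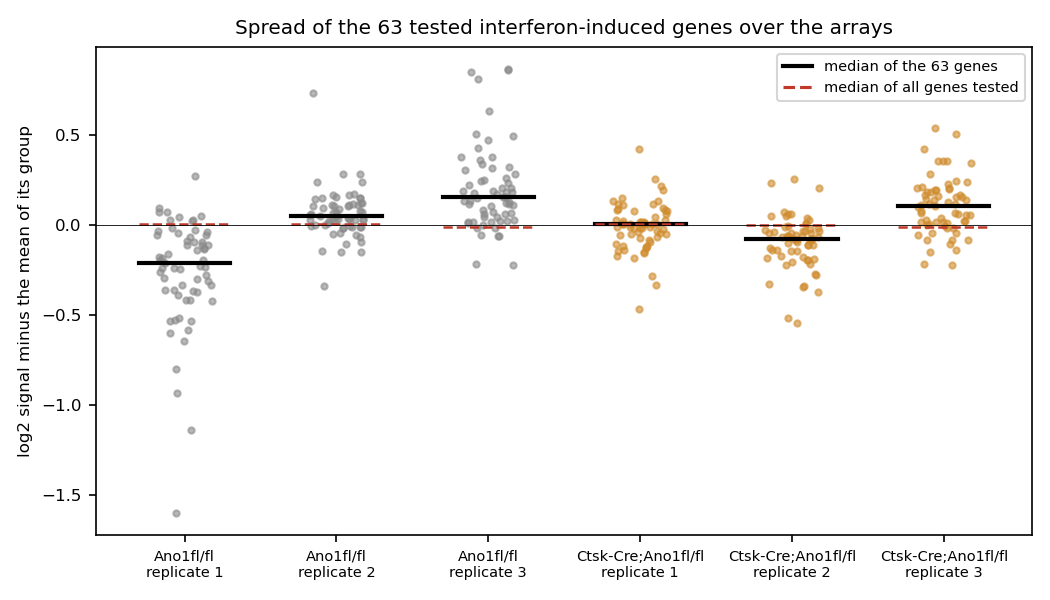
Log2 signal of each of the 63 tested genes minus the mean of its group (vertical axis) on each of the 6 arrays (horizontal axis), 1 point per gene, with the median of the 63 as a black bar and the median of all genes tested as a dashed red bar. The median on Ano1fl/fl replicate 1 was -0.21 and on replicate 3 of that genotype 0.15, while those of all genes stayed near 0.

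To show the elements that these genes share, 5 promoters are printed as RefSeq windows of 300 bases on GRCm38.p6, from 250 before the start site to 50 after it. Capitals mark the letters searched on both strands: for the ISRE, GAAA, any 2 bases and GAAA, or TTTC, any 2 bases and TTTC in the other sense; for the GAS, TTCNNNGAA, which reads the same in both senses. Matches of the ISRE may overlap one another. The first 3 belong to Ifit neighbours with unlike differences: *Ifit3* at chr19:34583279-34583578 on the plus strand, *Ifit3b* at chr19:34607707-34608006 on the plus strand and *Ifit1* at chr19:34640639-34640938 on the plus strand. *Isg15* at chr4:156200769-156201068 on the minus strand shows overlapping ISRE matches, and *Irf1* at chr11:53769764-53770063 on the plus strand shows a GAS match.
Ifit3: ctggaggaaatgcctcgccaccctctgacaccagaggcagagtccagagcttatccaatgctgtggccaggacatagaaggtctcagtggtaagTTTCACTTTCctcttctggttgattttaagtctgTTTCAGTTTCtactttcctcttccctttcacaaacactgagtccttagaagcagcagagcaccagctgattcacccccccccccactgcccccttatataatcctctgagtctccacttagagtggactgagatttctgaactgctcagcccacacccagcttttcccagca
Ifit3b: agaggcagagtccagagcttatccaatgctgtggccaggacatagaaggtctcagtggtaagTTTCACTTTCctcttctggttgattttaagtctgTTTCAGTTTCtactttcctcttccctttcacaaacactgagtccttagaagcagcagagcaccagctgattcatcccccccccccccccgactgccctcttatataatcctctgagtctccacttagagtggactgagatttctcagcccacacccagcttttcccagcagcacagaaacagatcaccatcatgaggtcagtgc
Ifit1: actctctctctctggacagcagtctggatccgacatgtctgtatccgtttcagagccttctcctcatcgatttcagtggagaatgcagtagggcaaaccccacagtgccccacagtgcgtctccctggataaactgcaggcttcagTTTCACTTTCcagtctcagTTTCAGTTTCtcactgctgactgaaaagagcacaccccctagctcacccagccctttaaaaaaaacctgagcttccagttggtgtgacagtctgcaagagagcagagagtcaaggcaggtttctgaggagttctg
Isg15: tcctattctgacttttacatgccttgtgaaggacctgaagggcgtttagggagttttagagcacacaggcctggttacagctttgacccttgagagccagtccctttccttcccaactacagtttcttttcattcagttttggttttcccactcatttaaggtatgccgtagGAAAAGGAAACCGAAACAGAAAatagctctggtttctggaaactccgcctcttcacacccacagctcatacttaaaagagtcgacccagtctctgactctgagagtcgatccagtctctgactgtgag
Irf1: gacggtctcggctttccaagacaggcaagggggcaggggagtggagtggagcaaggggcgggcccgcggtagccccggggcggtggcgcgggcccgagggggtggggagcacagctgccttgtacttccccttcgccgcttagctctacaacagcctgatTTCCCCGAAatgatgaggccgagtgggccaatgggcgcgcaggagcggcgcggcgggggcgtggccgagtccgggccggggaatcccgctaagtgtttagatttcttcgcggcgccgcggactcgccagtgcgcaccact

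Windows were given for 43 of the 63 tested genes. ISRE letters stood in 22 of these (51.2%), whereas 3.95% of 11612 tested genes with a window held them, and GAS letters stood in 14 (32.6%) against 8.77%. The match is a description of letters and does not show binding. Of the 22 genes with ISRE letters, 0 rose, 8 fell (36.4%) and 14 did not pass the test in limma (adjusted p under 0.05), with a median log2 difference of -0.10. At an unadjusted p under 0.05 also 0 rose and 10 fell, and in the t-test named in the methods, adjusted, 0 rose and 5 fell. Of the 21 without them, 1 rose (4.76%), 13 fell (61.9%) and 7 did not pass, with a median of -0.44. For these, 2 rose and 13 fell at an unadjusted p under 0.05, and 1 rose and 10 fell in the adjusted t-test. The 20 genes without a window held 5 of the 6 rises and 5 of the falls, so most of the rises could not be read for these letters. Among other tested genes with a window, 24.9% of the 437 with ISRE letters rose and 31.4% fell, as did 26.7% and 28.4% of the 11132 without. These values turned on single arrays. Without Ano1fl/fl replicate 1 the median of the 22 was -0.27 with 8 lower, and without replicate 3 it was 0.0040 with 2 higher and 5 lower. Without replicate 2 of that genotype 3 of the 22 were lower, and without any 1 Ctsk-Cre;Ano1fl/fl array 5 were. The median of the 21 ran from -0.48 to -0.38 in these fits, with 10 to 12 lower. The low array also differed between them, since 21 of 22 genes with ISRE letters and 15 of 21 without were lowest on Ano1fl/fl replicate 1. Among the other tested genes this was so for 38.7% of those with ISRE letters and 35.3% of those without.

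In the comparison of the genotypes the interferon-induced genes leaned to lower signals on the Ctsk-Cre;Ano1fl/fl arrays, with exceptions in each direction. In limma, 32 of the 63 (50.8%) passed an adjusted p of 0.05 in either direction, a share close to the 52.4% of all genes tested. Of these, 26 (41.3%) were lower, against 29.0% of all genes, and 6 (9.52%) were higher, against 23.4%. The median log2 difference, Ctsk-Cre;Ano1fl/fl minus Ano1fl/fl, was -0.23 for the 63 and -0.06 for all genes. By sign alone, 43 of the 63 (68.3%) had a negative sign, against 55.1%, and 20 (31.7%) a positive one, against 44.9%. Most differences were small: 5 genes (7.94%) were lower by more than 2-fold, against 7.19% of all genes, namely *Ifitm1*, *Ifitm6*, *Iigp1*, *Ifngr1* and *Ifit3b*, and 2 (3.17%) had fitted values higher by more than 2-fold, against 9.88%. These were *Ifi202b* and *Ifi27l2b*, and for *Ifi27l2b*, below background in Ano1fl/fl mice, only a lower limit of 1.48-fold holds. The groups did not overlap for 37 genes (58.7%), against 64.0% of all genes, and 27 of these were lower (35.4% of all genes were) and 10 higher (28.6%).

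Without Ano1fl/fl replicate 1, 64 of the names were tested, of which 27 were lower and 5 higher, and their median was -0.36. Of all 20924 genes tested in that fit, 24.9% were lower and 20.4% higher, with a median of -0.05. Of the 26 lower genes, 24 were kept, *Ifnar1* and *Ifitm3* were lost, and *Gbp8*, *Gbp11* and *Irgm2* were gained. *Usp18* was lost among the higher genes. The number lower by more than 2-fold went from 5 to 8 without that array, against 7.26% of all genes. Without Ano1fl/fl replicate 3 the lean was smaller: 19 of the 63 were lower and 6 higher, against 24.7% and 19.8% of all genes in that fit, 5 were lower by more than 2-fold, against 6.97%, and the median was -0.15.

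**Figure D2:**
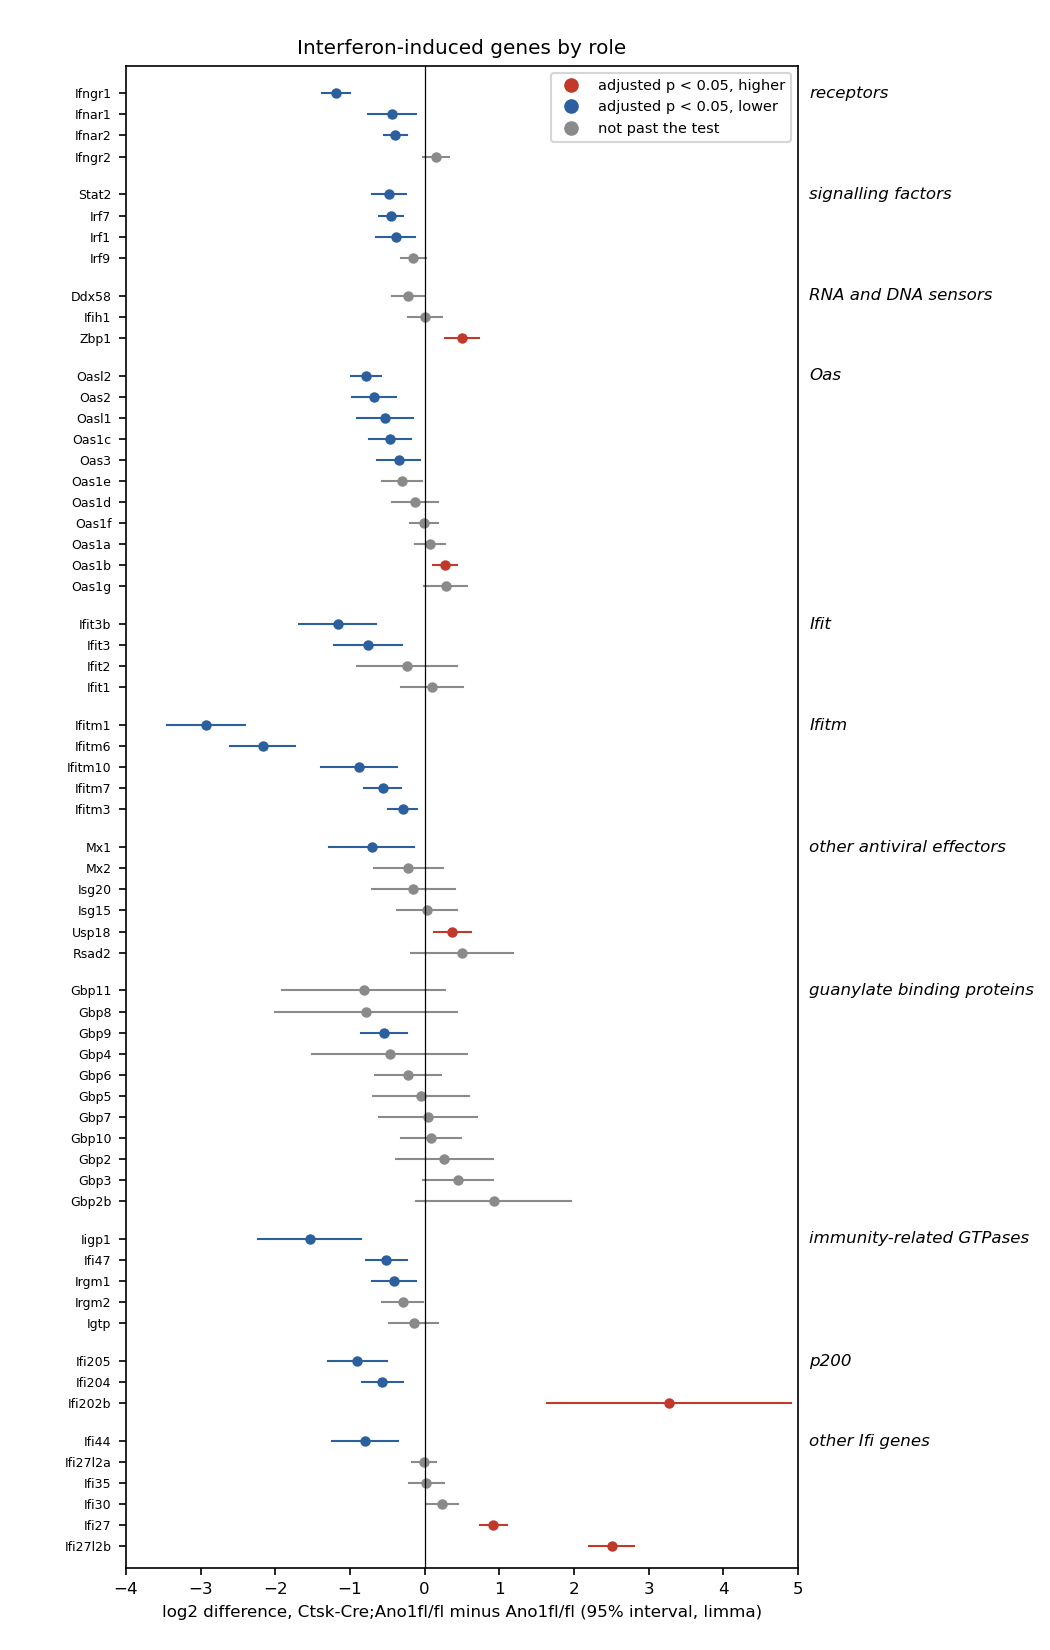
Log2 difference, Ctsk-Cre;Ano1fl/fl minus Ano1fl/fl (horizontal axis), with its 95% interval from limma for 62 of the 63 tested genes (vertical axis), grouped by role and coloured by the test. Differences ran from -2.93 for *Ifitm1* to 3.27 for *Ifi202b*, and the value drawn for *Ifi27l2b* rests on signals below background in 1 group.

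Of the 4 receptor genes, 3 fell. *Ifngr1*, the ligand-binding chain of the interferon gamma receptor, had log2 signals of 14.49, 14.29 and 14.40 in Ano1fl/fl mice and 13.19, 13.27 and 13.16 in Ctsk-Cre;Ano1fl/fl mice. The groups lay far apart, with no array of either between them. The difference of -1.19 (SE 0.08, adjusted p = 0.000109 in limma) was a 2.28-fold fall, at a probe on mm9 chromosome 10 from 19329923 to 19329982. *Ifngr2*, the signalling chain of the same receptor, went from 13.61, 13.70 and 13.63 to 13.81, 13.86 and 13.71. Its groups did not overlap and were higher with Cre, but the difference of 0.15 (SE 0.07, adjusted p = 0.134 in limma) did not pass the test, and its 95% interval ran from -0.03 to 0.32.

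Both chains of the type I receptor were lower. *Ifnar2* had log2 signals of 13.85, 13.87 and 13.88 in Ano1fl/fl mice and 13.48, 13.51 and 13.43 in Ctsk-Cre;Ano1fl/fl mice. The spread within each group was small beside the gap between them, and the difference was -0.39 (SE 0.06, adjusted p = 0.00294 in limma). *Ifnar1* signals were 11.51, 11.34 and 11.62 against 11.06, 11.25 and 10.83, in the same order of groups. These groups did not overlap but came close, and the difference was -0.44 (SE 0.13, adjusted p = 0.0316 in limma). The call for *Ifnar1* was lost without Ano1fl/fl replicate 1 (adjusted p = 0.0823) or 3 (0.0958) and without Ctsk-Cre;Ano1fl/fl replicate 1 (0.0735) or 3 (0.0745). It was also lost without the filter on dim probes (0.0715), in the t-test named in the methods (0.0744) and with the replicate number as a block (0.0881). The 3 further *Ifnar1* probes gave -0.21, -0.62 and -0.72, the last 2 without overlap of the groups.

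**Figure D3:**
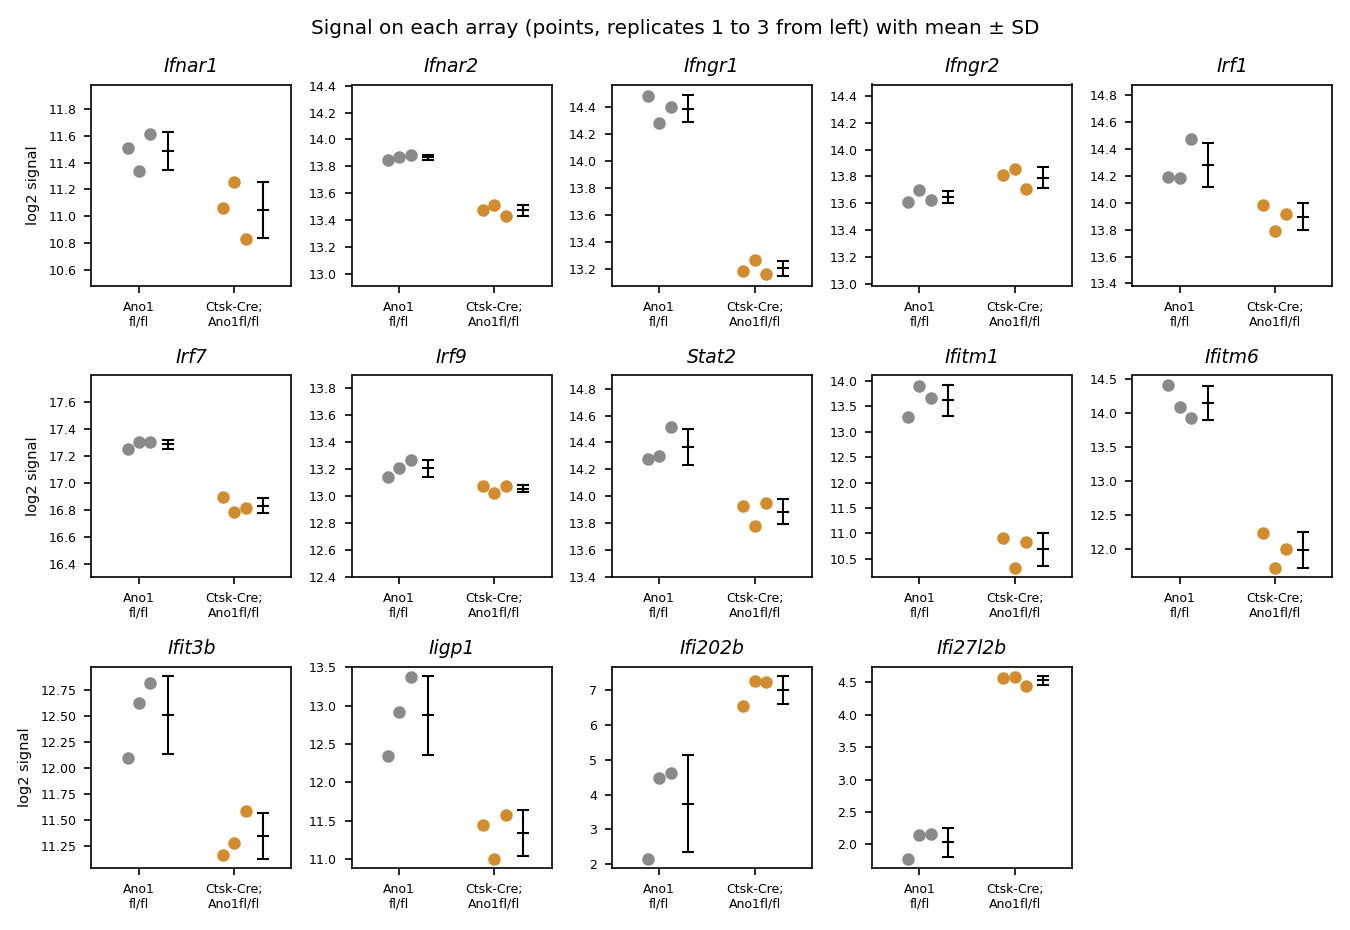
Log2 signal on each array (points, replicates 1 to 3 from the left) with the mean and SD of each group of 3, for the receptors, *Stat2*, the Irf genes and the 6 genes from *Ifitm1* to *Ifi27l2b*; each panel has its own vertical range. *Ifngr1* and *Ifitm1* separate the genotypes widely, while the groups of *Irf9* lie close together.

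The 4 signalling factors described here had negative differences, and 3 passed the test. *Irf7*, which amplifies type I interferon production, gave 17.25, 17.31 and 17.30 in Ano1fl/fl mice and 16.89, 16.79 and 16.82 in Ctsk-Cre;Ano1fl/fl mice. Its groups were tight and apart, with a difference of -0.46 (SE 0.07, adjusted p = 0.00201 in limma). *Stat2*, the factor of the type I complex that carries its activation domain, gave 14.28, 14.30 and 14.52 against 13.93, 13.78 and 13.95. Every Ctsk-Cre;Ano1fl/fl array was below every Ano1fl/fl array, and the difference was -0.48 (SE 0.10, adjusted p = 0.00723 in limma). A second *Stat2* probe gave -0.36, with overlap of the groups (p adjusted over all probes = 0.187 in limma). *Irf1*, a factor induced through GAS elements whose promoter with a GAS match is printed above, gave 14.19, 14.19 and 14.47 against 13.98, 13.79 and 13.92. The groups did not overlap and the difference was -0.39 (SE 0.11, adjusted p = 0.0238 in limma). That call was lost without Ano1fl/fl replicate 3 (adjusted p = 0.0546), without Ctsk-Cre;Ano1fl/fl replicate 2 (0.0703) or 3 (0.0549), with the mean of all *Irf1* probes (0.118) and in the t-test named in the methods (0.0523).

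*Irf9*, the DNA-binding part of the type I complex, gave 13.14, 13.21 and 13.27 against 13.07, 13.02 and 13.07. Its groups did not overlap, but the difference of -0.15 (SE 0.07, adjusted p = 0.108 in limma) did not pass. *Irf9* did pass under 75th percentile scaling (-0.25, adjusted p = 0.0231) and in the t-test named in the methods (adjusted p = 0.0458).

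Among the sensors, *Zbp1*, whose protein binds Z-form nucleic acid and can start cell death, was the only 1 of 3 to pass. Its log2 signals of 13.80, 13.92 and 13.83 in Ano1fl/fl mice and 14.34, 14.21 and 14.50 in Ctsk-Cre;Ano1fl/fl mice did not overlap, and the difference was 0.50 (SE 0.09, adjusted p = 0.00548 in limma). A second *Zbp1* probe, listed under another transcript accession, gave a difference of -0.02, and the mean of both probes was 0.24 (adjusted p = 0.138). *Ddx58*, the gene of the RNA sensor RIG-I, had a difference of -0.22 (limma adjusted p = 0.0786) and *Ifih1*, the gene of the RNA sensor MDA5, one of 0.0063, at their brightest probes. Their other probes are given below.

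The Oas family is named for enzymes that make the 2'-5' oligoadenylates which switch on RNase L. Of its 11 tested genes, 5 fell, 1 rose and 5 did not pass, with a median log2 difference of -0.30. *Oasl2*, a member of the family with ubiquitin-like domains, had log2 signals of 14.69, 14.82 and 14.85 in Ano1fl/fl mice and 14.07, 13.91 and 14.01 in Ctsk-Cre;Ano1fl/fl mice. The genotypes were clearly apart, and its difference of -0.79 (SE 0.08, adjusted p = 0.000533 in limma) had the smallest adjusted p of the family. *Oas2* gave 14.01, 14.29 and 14.47 against 13.59, 13.53 and 13.60. The groups did not overlap, with the wider spread among the Ano1fl/fl arrays, and the difference was -0.68 (SE 0.12, adjusted p = 0.00468 in limma). *Oasl1* (-0.53), *Oas1c* (-0.47) and *Oas3* (-0.35) also fell, with adjusted p of 0.0298, 0.0155 and 0.0493. The calls of *Oas1c*, *Oas3* and *Oasl1* were lost without Ano1fl/fl replicate 2 and without replicate 3, so that 2 Oas genes were lower in either case, and 3 were lower without Ctsk-Cre;Ano1fl/fl replicate 1 or without replicate 2.

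*Oas1b*, the gene at which resistance to flaviviruses varies among mice, was the only member of that family to pass as higher, at its brightest probe. Its log2 signals were 14.40, 14.31 and 14.28 in Ano1fl/fl mice and 14.60, 14.60 and 14.62 in Ctsk-Cre;Ano1fl/fl mice. The groups did not overlap, and the difference was 0.27 (SE 0.07, adjusted p = 0.0146 in limma). A second *Oas1b* probe for the same transcript gave 9.97, 10.20 and 10.29 against 9.61, 9.65 and 9.77, also without overlap and in the opposite direction (-0.48), and the last gave -0.32. The mean of all 3 probes was -0.17 (adjusted p = 0.189), so no direction can be given for *Oas1b*. Its rise was also lost without Ano1fl/fl replicate 3 (adjusted p = 0.0525) and under 75th percentile scaling (0.104). *Oas1g* had a like difference of 0.28 that did not pass (limma adjusted p = 0.0910). Oas1 genes are close copies of one another, as are *Ifit3* and *Ifit3b*, and the Ifi27-like, p200, Gbp and Ifitm genes also form families of related genes. Whether a probe also reads a relative was not tested.

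The Ifit genes encode proteins that hold viral RNA, and 2 of the 4 tested fell. *Ifit3b* had log2 signals of 12.09, 12.62 and 12.82 in Ano1fl/fl mice and 11.16, 11.28 and 11.59 in Ctsk-Cre;Ano1fl/fl mice. No array of one group reached the other, and the difference was -1.16 (SE 0.21, adjusted p = 0.00489 in limma), a 2.24-fold fall, at a probe on mm9 chromosome 19 from 34687522 to 34687581. *Ifit3* gave 14.30, 14.83 and 14.93 against 13.78, 13.87 and 14.13, again with no overlap, and a difference of -0.76 (SE 0.19, adjusted p = 0.0162 in limma). The *Ifit3* call was lost without Ano1fl/fl replicate 2 (adjusted p = 0.0569) or Ctsk-Cre;Ano1fl/fl replicate 1 (0.0534) and in the t-test named in the methods (0.0555). *Ifit1* (0.10, 95% interval from -0.32 to 0.52) and *Ifit2* (-0.24, from -0.90 to 0.43) did not pass and their groups overlapped. The printed promoters of *Ifit1*, *Ifit3* and *Ifit3b* each hold 2 ISRE matches. On Ano1fl/fl replicate 1 *Ifit1* was at 12.41 and *Ifit2* at 12.17, below the other 2 Ano1fl/fl arrays, and without that array the median of the 4 went from -0.50 to -0.72.

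The Ifitm genes, whose small membrane proteins keep enveloped viruses from fusing, held the largest falls. All 5 tested were lower at their brightest probe, with a median of -0.88. That median was -0.57 with normexp background correction and -0.30 with the mean of all probes, where 3 of the 5 were lower. *Ifitm1* had log2 signals of 13.29, 13.90 and 13.66 in Ano1fl/fl mice and 10.90, 10.32 and 10.84 in Ctsk-Cre;Ano1fl/fl mice. The gap between the groups was several times the spread within them, and the difference of -2.93 (SE 0.22, adjusted p = 0.000154 in limma) was a 7.61-fold fall. Its probe lies on mm9 chromosome 7 from 148155659 to 148155718. *Ifitm6*, on the same chromosome from 148201714 to 148201773, gave 14.42, 14.10 and 13.93 against 12.23, 11.71 and 11.995. The groups were again far apart, and the difference of -2.17 (SE 0.18, adjusted p = 0.000232 in limma) was a 4.49-fold fall.

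*Ifitm10* (-0.88) and *Ifitm3* (-0.30) fell by less. The *Ifitm3* call was lost without Ano1fl/fl replicate 1 (adjusted p = 0.0614) or 2 (0.0680) and without Ctsk-Cre;Ano1fl/fl replicate 2 (0.0573) or 3 (0.0587). *Ifitm7* had log2 signals of 16.55, 16.62 and 16.61 in Ano1fl/fl mice and 16.23, 15.98 and 15.88 in Ctsk-Cre;Ano1fl/fl mice at its brightest probe, a difference of -0.56 (SE 0.10, adjusted p = 0.00519 in limma). Its other probe gave 15.88, 15.64 and 15.93 against 16.23, 16.54 and 16.32 and a difference of 0.55, so the probes separated the groups in opposite directions. Their mean was -0.0075, and no direction can be given for *Ifitm7*. Of the 11 neutrophil markers, 7 fell on these arrays (63.6%, against 29.0% of all genes) and 2 rose. Their part in the Ifitm values was not tested.

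Of the 6 other antiviral effectors, 1 rose and 1 fell, with a median of -0.06. Without Ano1fl/fl replicate 1 the median was -0.24 with only *Mx1* lower, without replicate 2 or 3 of that genotype it was 0.03 with both calls lost, and without Ctsk-Cre;Ano1fl/fl replicate 2 it was 0.04. *Usp18*, the protease that takes ISG15 off its targets and damps the type I receptor, had log2 signals of 12.91, 12.99 and 12.99 in Ano1fl/fl mice and 13.26, 13.21 and 13.54 in Ctsk-Cre;Ano1fl/fl mice. Groups did not overlap and the difference was 0.37 (SE 0.10, adjusted p = 0.0247 in limma), but the call was lost without Ano1fl/fl replicate 1 (adjusted p = 0.0732), 2 (0.0620) or 3 (0.0576), under 75th percentile scaling (0.0685) and in the t-test named in the methods (0.0517). *Mx1*, a GTPase that blocks orthomyxoviruses, gave 12.65, 13.14 and 13.41 against 12.18, 12.18 and 12.70. The groups overlapped, and although the difference of -0.71 (SE 0.23, adjusted p = 0.0425 in limma) passed, it was lost without Ano1fl/fl replicate 2 (0.113) or 3 (0.113) and without Ctsk-Cre;Ano1fl/fl replicate 1 (0.118) or 2 (0.116). It was also lost without the filter on dim probes (0.109) and in the t-test named in the methods (0.108, and 0.0635 unadjusted), while a second *Mx1* probe gave -1.09 without overlap of the groups (p adjusted over all probes = 0.0102). *Isg15*, the ubiquitin-like modifier, was at 0.03 with an interval from -0.38 to 0.43, and its printed promoter holds 3 ISRE matches. *Rsad2*, which encodes viperin, was at 0.50, with an interval from -0.19 to 1.18.

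The guanylate binding proteins, large GTPases induced above all by interferon gamma, held few calls. Of 11 tested, 1 fell and 10 did not pass, and the median was -0.05. *Gbp9* had log2 signals of 7.47, 7.72 and 7.77 in Ano1fl/fl mice and 7.12, 6.92 and 7.30 in Ctsk-Cre;Ano1fl/fl mice. The groups did not overlap and the difference was -0.54 (SE 0.13, adjusted p = 0.0136 in limma). The others ran from -0.82 for *Gbp11* to 0.92 for *Gbp2b*, which was above background on only 1 Ano1fl/fl array, and the widest interval was that of *Gbp8*, from -2.005 to 0.43. The counts of calls turned on single arrays. Without Ano1fl/fl replicate 1, *Gbp8* (-1.36, adjusted p = 0.0107) and *Gbp11* (-1.29, 0.0230) were also lower, so that 3 fell and the median was -0.31. Without Ano1fl/fl replicate 3, *Gbp3* (0.61, adjusted p = 0.0413) was higher and the median was 0.13. *Gbp2b* also passed there as higher (0.0195), but no Ano1fl/fl array left in that fit was above background for it, so its size is not given. *Gbp2* gave 12.31, 12.97 and 13.39 against 13.16, 13.01 and 13.29, with the low value on Ano1fl/fl replicate 1, and its difference of 0.26 (SE 0.27, adjusted p = 0.440 in limma) was well within the spread of the Ano1fl/fl arrays.

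The immunity-related GTPases, which attack the vacuoles of intracellular microbes, were lower in all 5 cases by sign, and 3 passed. *Iigp1* had log2 signals of 12.34, 12.92 and 13.37 in Ano1fl/fl mice and 11.45, 10.997 and 11.57 in Ctsk-Cre;Ano1fl/fl mice. The groups were apart although each spread widely, and the difference of -1.54 (SE 0.28, adjusted p = 0.00520 in limma) was a 2.90-fold fall. *Ifi47* gave 14.56, 14.79 and 14.91 against 14.22, 14.15 and 14.35, with no overlap and a difference of -0.52 (SE 0.11, adjusted p = 0.00988 in limma). *Irgm1*, a regulator of the family and of autophagy, fell by 0.41 (limma adjusted p = 0.0299), a call lost without any 1 array except Ano1fl/fl replicate 1. *Irgm2* (-0.30) did not pass with all arrays but did without Ano1fl/fl replicate 1 (-0.39, adjusted p = 0.0257), and *Igtp* was at -0.15. Without that array 4 of the 5 were lower, and the family's median went from -0.41 to -0.53.

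The p200 genes, a cluster of DNA-binding proteins on chromosome 1, split. *Ifi202b*, known to differ in level between inbred mouse strains, had log2 signals of 2.15, 4.48 and 4.61 in Ano1fl/fl mice and 6.55, 7.27 and 7.22 in Ctsk-Cre;Ano1fl/fl mice. An array of the Ano1fl/fl group was not above background, and the groups did not overlap. The fitted difference was 3.27 (SE 0.67, adjusted p = 0.00802 in limma), at a probe on mm9 from 175892789 to 175892848. *Ifi202b* passed the filter only through the Ctsk-Cre;Ano1fl/fl arrays. No rank among the rises is given, since *Ifi27l2b* below has only a lower limit. The size for *Ifi202b* turned on the lowest array and on the scale. It was 2.46 without Ano1fl/fl replicate 1, 1.29 with normexp background correction and 1.77 on the series matrix values, and a second *Ifi202b* probe rose by 3.10. *Ifi205*, whose probe lies near it, gave 14.17, 14.61 and 14.73 against 13.47, 13.57 and 13.76. Its groups did not overlap and it fell, with a difference of -0.90 (SE 0.16, adjusted p = 0.00493 in limma). *Ifi204* gave 16.02, 16.26 and 16.41 against 15.60, 15.69 and 15.70, also without overlap, and its difference was -0.57 (SE 0.11, adjusted p = 0.00677 in limma). The 3 calls held without any 1 array.

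Among the other Ifi genes, 2 rose, 1 fell and 3 did not pass. *Ifi27*, the gene of a mitochondrial and nuclear membrane protein, had log2 signals of 13.58, 13.55 and 13.47 in Ano1fl/fl mice and 14.37, 14.53 and 14.46 in Ctsk-Cre;Ano1fl/fl mice. The groups were tight and apart, with a difference of 0.92 (SE 0.07, adjusted p = 0.000212 in limma). Its neighbour *Ifi27l2b* gave 1.77, 2.15 and 2.17 against 4.56, 4.59 and 4.45 but no Ano1fl/fl array was above background. Only a lower limit can be given for it, taken from the dimmest detected signal of each Ano1fl/fl array or the probe's own where higher: it was at least 1.48-fold higher. *Ifi27l2b* passed the filter only through the Ctsk-Cre;Ano1fl/fl arrays. Its call as higher rests on signals below background in the other group, so its p-value is not given. *Ifi44*, a cytoplasmic protein gene, gave 11.34, 11.44 and 11.96 against 10.73, 10.63 and 10.97. The groups did not overlap, and *Ifi44* fell with a difference of -0.80 (SE 0.18, adjusted p = 0.0123 in limma). *Ifi30*, a lysosomal thiol reductase gene used in antigen processing, was at 0.23 and passed without Ctsk-Cre;Ano1fl/fl replicate 3 (0.30, adjusted p = 0.0358) but not with all arrays (0.0687).

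The choice of probe mattered for some genes. Of the tested genes, 29 had more than 1 tested probe, with 37 probes beside the brightest. Of those 37, 31 had the same sign as the brightest probe, and 24 had a lower difference. For *Ddx58*, 3 further probes gave -0.78, -0.75 and -0.82, each without overlap of the groups, against -0.22 at the brightest. *Ifih1* had a second probe, listed under another transcript accession, with log2 signals of 7.62, 7.73 and 8.10 against 6.71, 6.71 and 6.77 and a difference of -1.09. *Ifi27l2a* had a second probe with a difference of -1.29, while the brightest was at -0.0042. These genes thus had at least 1 probe that was lower, at p adjusted over all probes of 0.0104 or less, though none passed by the rule of the brightest probe.

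**Figure D4:**
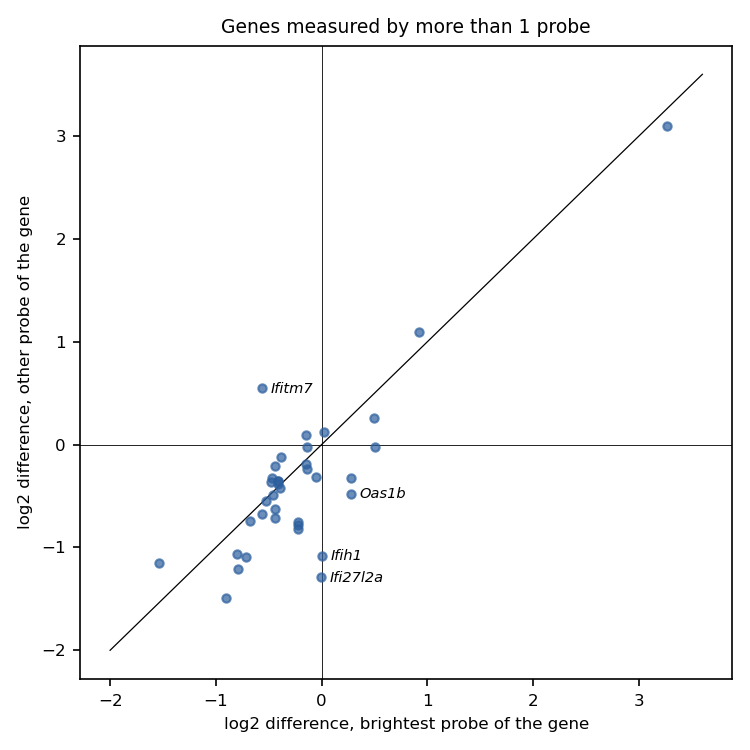
Log2 difference at each further probe (vertical axis) against that at the brightest probe of the same gene (horizontal axis), 37 points from 29 genes, with the line of equal values. Points below the line had a lower difference at the further probe, as 24 did, and *Ifitm7* fell at its brightest probe (-0.56) and had 0.55 at the other.

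Genes of the pathway beyond the 66 names did not all lean the same way. Of 14 tested ligand genes, 3 rose (21.4%, against 23.4% of all genes) and 6 fell (42.9%, against 29.0%), with a median of -0.28. The list held interferon genes and also interleukin genes, among them *Il12a*, *Il15* and *Il18*. *Ifng*, the gene of interferon gamma, rose from 3.31, 4.77 and 4.18 to 7.81, 7.89 and 8.74, a fitted difference of 4.06 (SE 0.42, adjusted p = 0.000556 in limma). It passed the filter only through the Ctsk-Cre;Ano1fl/fl arrays, as 1 of the Ano1fl/fl arrays was not above background. Its size is therefore not exact, and it ran from 3.67 to 4.39 with 1 array left out. *Il12a*, a subunit gene of an inducer of interferon gamma, rose by 2.62. *Ifnab* had a difference of 2.71 at its brightest probe and of -0.44 at another, both without overlap of the groups, so no direction can be given for it. *Ifnk* was at least 1.34-fold lower, as no Ctsk-Cre;Ano1fl/fl array was above background, and *Il18* (-1.18) and *Il15* (-1.17, and -2.28 at another of its probes) fell. *Ifnb1*, the interferon beta gene, named here after its values were seen, gave 6.99, 7.81 and 7.77 against 6.47, 6.78 and 6.48 and a difference of -0.95 (SE 0.24, adjusted p = 0.0170 in limma), a call lost without Ano1fl/fl replicate 2 (0.0561) or 3 (0.0551) or Ctsk-Cre;Ano1fl/fl replicate 1 (0.0542) or 3 (0.0513).

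Of the 18 tested kinases and negative regulators, 10 were higher (55.6%, against 23.4% of all genes) and 3 lower (16.7%, against 29.0%), with a median of 0.24. With 1 array left out, 8 to 10 were higher. *Socs3*, a feedback inhibitor of JAK kinases, rose from 11.24, 11.35 and 11.17 to 14.48, 14.39 and 14.48, a difference of 3.20 (SE 0.08, adjusted p = 5.83e-06 in limma). The inhibitor gene *Cish* (1.81) and the nuclear receptor gene *Nr1h3* (1.34) also rose, while *Sla2* (-0.77), *Pias1* (-0.51) and *Pias3* (-0.49) fell. A further 34 genes were listed for the sensing of nucleic acid and the induction of interferon, regulators of both included. Of these, 7 rose (20.6%, against 23.4% of all genes) and 16 fell (47.1%, against 29.0%), with a median of -0.19. The rises were led by *Irf4* (3.48), *Ticam2* (1.42) and *Ikbke* (0.92). *Ticam2* was at 2.31 to 2.40 without any 1 Ano1fl/fl array, where another of its probes was the brightest, and a second *Ikbke* probe was at 0.12. The falls were led by *Tlr3* (-1.60), the gene of a receptor for double-stranded RNA, *Mb21d1* (-1.22), that of the DNA sensor cGAS, and *Tmem173* (-1.06), that of its partner STING. *Tlr3* was at -0.87 without Ano1fl/fl replicate 1, where its other probe was the brightest, and its fall was then smaller than those of *Mb21d1* (-1.23) and *Tmem173* (-1.09).

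Of 88 other tested genes that interferon is known to induce, 11 rose (12.5%, against 23.4% of all genes) and 38 fell (43.2%, against 29.0%). Their median was -0.25, close to the -0.23 of the 63, while that of all genes was -0.06. *Slfn4* (-2.73), *Ly6a* (-1.74) and *Slfn1* (-1.67) fell the most. *Serping1* (2.94), *Nos2* (2.91) and *Cd69* (2.79) rose the most. The genes named in these 4 lists, other than *Ifnb1*, kept their calls without any 1 array. The number of lower genes among the 88 was 27 to 40 when 1 array was left out, and it was 40 without Ano1fl/fl replicate 1.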

How the data were processed

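RNA of 3 Ano1fl/fl and 3 Ctsk-Cre;Ano1fl/fl mice, 1 mouse an array, was hybridised with Cy3 to Agilent one-colour mouse arrays on a single slide. The deposited files hold the scanner intensities that the authors obtained with Agilent Feature Extraction 10.7.1.1, background-subtracted within each array and not normalized between arrays. The deposited series matrix holds the median intensities of the same spots, with a largest difference of 0. These intensities are linear, and the number of arrays limits their precision.

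Log2 values of the processed signals were quantile normalized between the 6 arrays, as the methods name, with limma 3.58.1 in R 4.3.3. Control spots and spots marked as outliers (143 to 252 an array) were left out, as were 14 probes with a missing value. Spots of a probe were averaged, and the brightest probe over the 6 arrays stood for its gene name. A probe counted as well above background where at least 0.5 of its spots did. The genotypes were compared with lmFit and eBayes, with Benjamini-Hochberg adjustment over all 20645 genes tested. The fit was tested on simulated data. Python 3.11.15 with pandas 2.3.3, numpy 2.4.6 and matplotlib 3.10.9 served for reading and plotting. The array files gave the gene names and mm9 positions, and 58 of 63 tested accessions were matched to RefSeq, none with another symbol.

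The genes and lists were chosen with earlier results of these data known. Values on every array are given for all receptors and signalling factors except 1 gene, which is counted but not reported here by itself, for up to 2 rises and 2 falls in each other role, for genes below background in 1 group, and for genes whose probes separate the groups in opposite directions. In lists outside the gene names, up to 3 rises and 3 falls are named. *Gbp2* and *Ifnb1* were given after their values were seen. Alternatives covered scaling, background correction, filters, probe choice, tests, thresholds, the replicate number as a block and each array left out.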

Additional observations from a re-analysis of the deposited data

How the results depend on the processing

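The median log2 difference of the genes stayed negative in each alternative, from -0.36 to -0.15. The 26 lower genes became 43 of 100 probes with each probe by itself and 14 at an adjusted p under 0.01, and 19 to 27 with 1 array left out. The 6 higher genes became 5 to 7 with 1 array left out, 4 under 75th percentile scaling, where the median of all genes was -0.12, and 4 with the mean of all probes. The 2 genes with fitted values higher by more than 2-fold became 1 with normexp background correction, 1 on the series matrix values and 0 where all 6 arrays had to be above background, against 4 probes with each probe by itself and 2 to 3 with 1 array left out. The 5 genes lower by more than 2-fold became 11 probes with each probe by itself, 12 at 1.5-fold, 2 at 3-fold and 5 to 8 with 1 array left out, 8 of them without Ano1fl/fl replicate 1. The methods' t-test gave 5 higher and 19 lower genes after Benjamini-Hochberg adjustment and 8 and 25 unadjusted. *Oas1b* turned to -0.17 with the mean of all probes. Of 502 values of the genes given on every array, 457 kept their side of the threshold, 40 lost a call, 4 gained one and 1 turned. In all RefSeq promoters, 9.55% of genes held GAS letters against 8.77% of tested ones.

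Same-numbered arrays did not deviate together, with correlations of 0.0044, -0.062 and -0.081 over all genes, so the numbers were not taken to pair the mice. With the replicate number as a block, 6 genes were higher and 23 lower, and 4200 of all genes were higher and 5079 lower, against 4839 and 5987. The calls of *Ifnar1* (adjusted p = 0.0881), *Irgm1* (0.0682), *Oas1b* (0.0526) and *Oas3* (0.0878) were then lost, *Gbp2b* (0.0267) was gained, and no other of the 63 calls changed.

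With 3 mice a group, an exact permutation test of a single gene cannot go below a p of 0.1. The 3 arrays a group limit every value, and signals near background limit *Ifi27l2b*, *Ifi202b* and *Gbp2b*. The Ano1 probe checks no label.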
